A study of Homo sapiens with 12 samples.

Results

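The 10 genes described here are core parts and well-known targets of the YAP-TEAD pathway: YAP1, WWTR1, TEAD1, TEAD4, CCN1, CCN2, ANKRD1, AMOTL2, AJUBA and LATS2. They were chosen by name, as 10 of 20037 protein-coding genes, and each is followed through the peaks within 20 kb of its span on GRCh38. Open chromatin was profiled by ATAC-seq, in which a transposase inserts adapters into accessible DNA, in 2 established cell lines from human oesophageal squamous cell carcinoma, KYSE150 and KYSE510. For each, 3 libraries are labelled as controls and 3 as silenced for HCP5, a long non-coding RNA, which gives 12 libraries in 4 groups. Cells of all groups were grown in RPMI-1640 with 10% FBS. How HCP5 was silenced, what the controls received and whether the 3 libraries of a group came from separate cultures are not given in the sources used here, so the tests measure the spread between libraries, which may be technical. HCP5 RNA was not measured, so the silencing itself was not checked.

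The Hippo pathway restrains YAP (YAP1) and TAZ (WWTR1), a pair of transcriptional co-activators. The kinases LATS1 and LATS2 phosphorylate them and keep them in the cytoplasm, and when they are released they enter the nucleus and act through the DNA-binding TEAD factors. Their targets include secreted matricellular proteins (CCN1, CCN2), a muscle and stress protein (ANKRD1) and regulators that act back on the pathway (AMOTL2, AJUBA, LATS2). A peak says that DNA is open, and it is not a measure of expression.

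The heights used are the authors' Pileup values, whole-number peak heights at 1 position with no scaling between libraries, and the depth of the libraries is unknown. Peaks with a Pileup of at least 3 on 24 chromosomes were used. There were 52869 to 63295 per KYSE150 library, 9.675 to 11.13% of its deposited peaks on these chromosomes. Each KYSE510 library had 104208 to 123109, 88.76 to 91.53% of its peaks there. The background solved from each peak had a library median of 0.08261 to 0.1084 in KYSE150 and 0.32 to 0.34 in KYSE510. The lines thus differ in how the lists were made or how deep they are, and line and list cannot be told apart. Of 10 squamous epithelial marker genes, 9 had a peak in all 6 KYSE150 libraries, with SOX2 the exception, and 10 had one in all 6 KYSE510 libraries. Their median percentile among all genes by tallest peak was 67.3 in KYSE150 and 61.7 in KYSE510. The range was 11.95 (SOX2) to 90.75 (CDH1) in KYSE150 and 18.08 (KRT14) to 97.65 (PKP1) in KYSE510. KRT14 stood at 33.14 in KYSE150, and KRT6A at 22.59 in KYSE150 and 24.98 in KYSE510. The marker sets of other cell types had medians of 42.6 and 57.3 for blood, 44.0 and 32.9 for endothelium, 35.3 and 48.7 for fibroblasts, 49.3 and 40.3 for neurons and 37.6 and 25.3 for liver, in the same order of lines. A peak in all 6 KYSE510 libraries was also held by 4 of 4 blood and 3 of 3 endothelial markers. The same held for 4 of 4 fibroblast, 3 of 3 neuronal and 1 of 2 liver markers. In KYSE150 the counts were 3 of 4, 3 of 3, 2 of 4, 2 of 3 and 1 of 2, in that order. Presence of a peak in KYSE510 thus did not set the squamous markers apart.

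TEAD factors bind the letters GGAATG. For AP-1, a factor often found beside them, the loose pattern TGANTCA was used, where N is any base. These letters were searched on both strands in the 250 bases before each RefSeq gene start (GRCh38.p14). Promoter entries were found for 7 of the 10 genes, in 10 windows. GGAATG was in 5 of these 10 windows and in 10.5% of 22076 windows of protein-coding genes. TGANTCA was in 1 of the 10 and in 5.37% of all. The windows below are those outside the gene spans for the genes with the highest and the lowest tallest peak in each line (AMOTL2 and AJUBA in KYSE150, YAP1 and LATS2 in KYSE510) and for CCN2, with ANKRD1 added after its values were seen. They run 5′ to 3′ on the gene's strand and end at the base before the start, and capitals mark the motif letters.
CCN2, chr6:131951373-131951622, minus strand: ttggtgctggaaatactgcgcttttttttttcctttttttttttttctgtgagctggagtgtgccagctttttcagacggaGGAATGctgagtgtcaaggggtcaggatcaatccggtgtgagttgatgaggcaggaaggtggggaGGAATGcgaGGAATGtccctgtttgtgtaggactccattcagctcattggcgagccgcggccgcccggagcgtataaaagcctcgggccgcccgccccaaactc
ANKRD1, chr10:90921088-90921337, minus strand: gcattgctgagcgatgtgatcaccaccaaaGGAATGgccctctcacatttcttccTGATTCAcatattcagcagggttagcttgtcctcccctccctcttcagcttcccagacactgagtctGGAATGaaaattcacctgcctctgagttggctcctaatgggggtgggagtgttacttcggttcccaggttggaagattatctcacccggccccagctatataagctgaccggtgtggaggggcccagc
YAP1, chr11:102110197-102110446, plus strand: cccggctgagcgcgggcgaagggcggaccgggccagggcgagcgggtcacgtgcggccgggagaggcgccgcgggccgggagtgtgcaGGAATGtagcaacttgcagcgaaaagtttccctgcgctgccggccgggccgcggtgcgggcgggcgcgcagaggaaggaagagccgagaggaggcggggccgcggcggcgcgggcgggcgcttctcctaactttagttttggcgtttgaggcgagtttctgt
AMOTL2, chr3:134375418-134375667, minus strand: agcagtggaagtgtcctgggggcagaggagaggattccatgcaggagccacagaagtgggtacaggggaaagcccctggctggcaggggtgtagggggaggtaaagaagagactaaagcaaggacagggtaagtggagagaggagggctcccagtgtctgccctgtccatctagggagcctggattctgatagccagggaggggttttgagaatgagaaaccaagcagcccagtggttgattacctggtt
AJUBA, chr14:22982552-22982801, minus strand: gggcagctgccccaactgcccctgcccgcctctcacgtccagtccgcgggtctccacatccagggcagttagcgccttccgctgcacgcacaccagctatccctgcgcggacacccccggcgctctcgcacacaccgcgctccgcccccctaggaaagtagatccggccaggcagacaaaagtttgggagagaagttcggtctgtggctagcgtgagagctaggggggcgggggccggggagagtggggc
LATS2, chr13:21061587-21061836, minus strand: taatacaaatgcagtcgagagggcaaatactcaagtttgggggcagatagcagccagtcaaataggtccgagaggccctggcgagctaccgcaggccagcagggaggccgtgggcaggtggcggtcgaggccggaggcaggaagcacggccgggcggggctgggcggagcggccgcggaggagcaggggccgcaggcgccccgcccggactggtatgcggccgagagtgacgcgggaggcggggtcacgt
The CCN2 window holds GGAATG with its first base 169, 104 and 95 bp before the start. The ANKRD1 window holds it at 220 and 128 bp, with TGATTCA, a match to the loose AP-1 pattern, at 195 bp. The YAP1 window holds GGAATG at 162 bp. The windows printed for AMOTL2, AJUBA and LATS2 hold neither. The printed AMOTL2 window met a peak in no KYSE150 library and in each KYSE510 library, at heights of 20 to 32. The printed AJUBA window met a peak in KYSE510 control 1 alone, 11 high. The LATS2 window met one in every library. Second RefSeq starts of AMOTL2 and AJUBA lie inside the gene spans, and their windows hold GGAATG once each, at 69 and 59 bp before those starts. A match is only a run of letters and says nothing about binding.

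The 10 windows held 66, 74 and 77 peaks in KYSE150 controls and 76, 77 and 74 after silencing. In KYSE510 they held 106, 98 and 97 in controls and 101, 116 and 96 after silencing. These raw counts overlapped between control and silenced libraries in both lines. The means were 72.3 ± 5.69 and 75.7 ± 1.53 in KYSE150 and 100.3 ± 4.93 and 104.3 ± 10.4 in KYSE510 (SD, n = 3 each). Per 10000 peaks of the library these were 11.6 ± 0.637, 13.2 ± 0.752, 9.04 ± 0.258 and 8.98 ± 1.06 in the same order. Scaled in this way the KYSE150 groups did not overlap, with 10.933, 11.831 and 12.165 in controls and 13.05, 12.512 and 13.997 after silencing, while the KYSE510 groups did; silenced libraries 1 to 3 of KYSE150 had 58236, 61543 and 52869 peaks and the controls 60369, 62546 and 63295. The part of list length in this was not tested. The higher KYSE510 counts went with longer lists of peaks at this height. Just inside the threshold, 10 to 19 of the peaks per KYSE150 library and 17 to 35 per KYSE510 library had a Pileup of exactly 3, and just outside it 15 to 29 and 3 to 13 further peaks had a Pileup of 2.

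Heights were compared between libraries by rank. In each library the tallest peak of every protein-coding gene was ranked among all genes and the rank was turned into a normal score, a scale on which 0 is the middle gene and 1 is 1 SD above it. Windows ran from 43.19 kb for CCN1 to 310.3 kb for TEAD1, and a longer window has more places for a tall peak, so the order of the genes is also an order of windows. By mean percentile over its 6 libraries, KYSE510 ranked YAP1 (97.1 ± 1.49) and AMOTL2 (95.6 ± 2.26) first, then WWTR1 (79.1 ± 4.08), CCN1 (67.9 ± 7.94), CCN2 (63.3 ± 13.7), AJUBA (60.9 ± 8.10), TEAD1 (58.5 ± 10.1), TEAD4 (52.6 ± 8.97), ANKRD1 (40.5 ± 13.6) and LATS2 (32.2 ± 10.8). In this order the steps from AMOTL2 to WWTR1 and from WWTR1 to CCN1 exceeded the larger SD of the pair, and the other neighbours lay within it. KYSE150 ranked AMOTL2 (90.1 ± 5.64) and TEAD1 (87.6 ± 8.47) first, then WWTR1 (82.05 ± 6.39), CCN1 (77.8 ± 5.24), YAP1 (76.8 ± 10.2), CCN2 (73.5 ± 13.9), TEAD4 (70.4 ± 6.73), LATS2 (56.5 ± 9.55), ANKRD1 (39.7 ± 15.4) and AJUBA (37.0 ± 6.15). There only the steps from TEAD4 to LATS2 and from LATS2 to ANKRD1 exceeded the larger SD (n = 6 for each value).

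**Figure D1:**
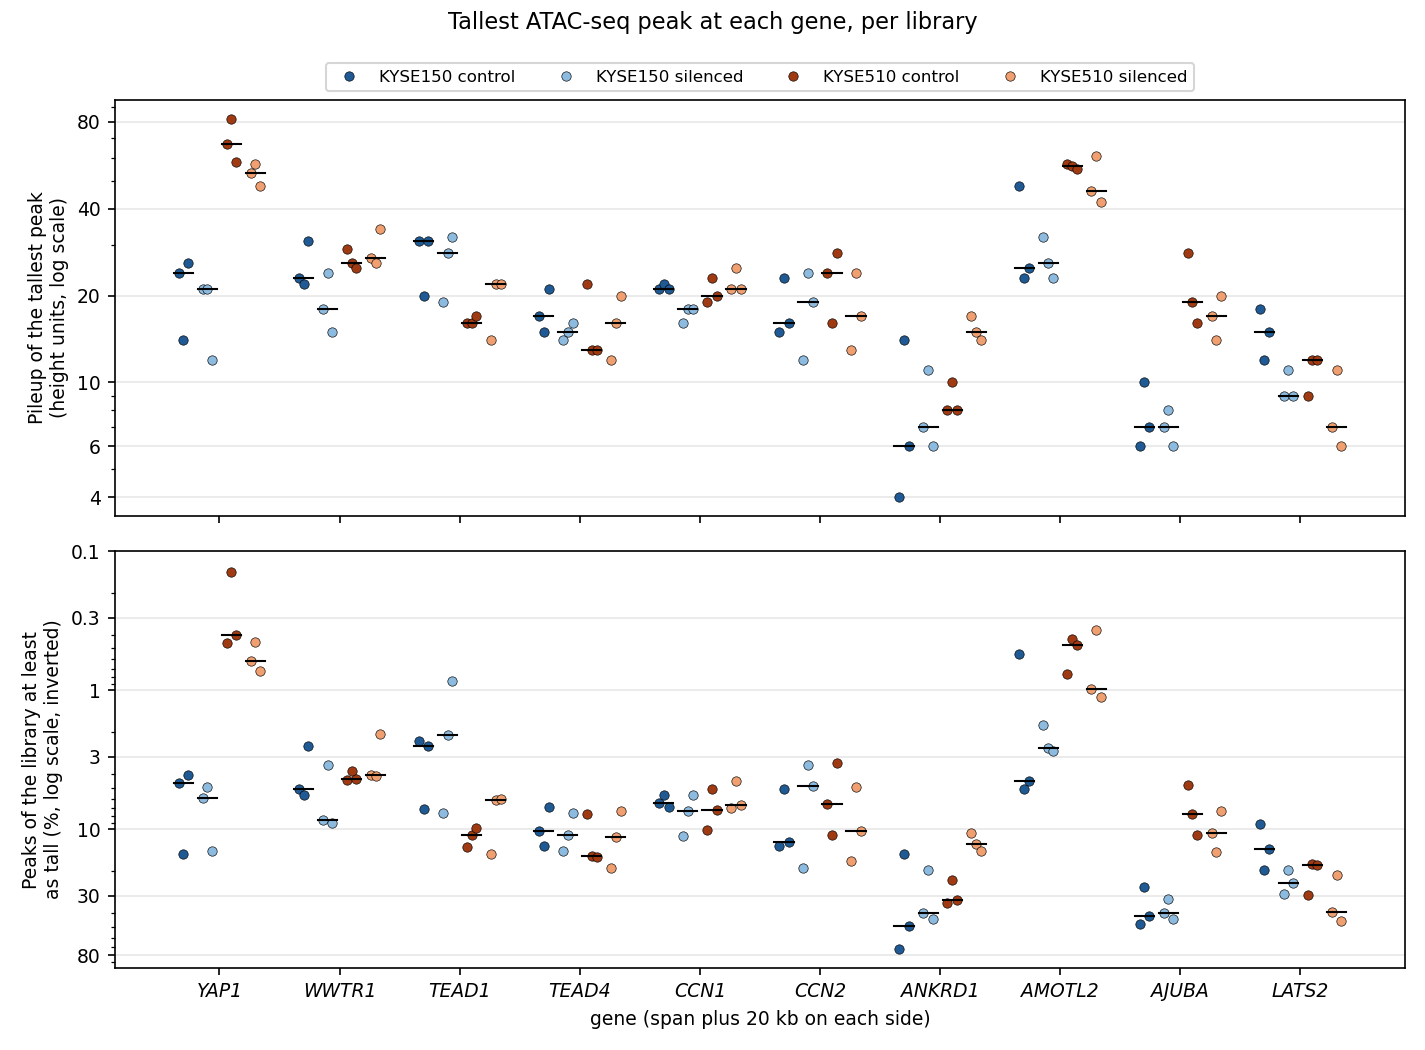
Pileup of the tallest peak at each gene (upper axis, log scale) and the percent of the library's peaks at least as tall (lower axis, log scale, inverted), 1 point per library and a bar at the median of the 3 libraries of a group. YAP1 stands at 48 to 82 in KYSE510 and 12 to 26 in KYSE150, and on the lower axis control and silenced points are apart for ANKRD1 in KYSE510 alone. On the upper axis they are also apart for YAP1 in KYSE510 and for CCN1 and LATS2 in KYSE150.

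The question of the design is whether accessibility changed when HCP5 was silenced. For the co-activators and the TEAD factors that carry them no change passed the test in either line. The tallest peak of a gene window was not always the same peak in each library. The tallest YAP1 peak was 24, 14 and 26 high in KYSE150 controls and 21, 21 and 12 after silencing. In KYSE150 control 2 and silenced 3 it lay outside the gene. In KYSE510 it was 67, 82 and 58 in controls and 53, 57 and 48 after silencing. All 3 KYSE510 silenced heights were below the controls, but the rank scores overlapped and their difference was -0.33 ± 0.216 (SE, limma adjusted p = 0.825). WWTR1 read 23, 22 and 31 against 18, 24 and 15 in KYSE150, control against silenced. In KYSE510 it read 29, 26 and 25 against 27, 26 and 34. The groups overlapped in both lines. The KYSE150 controls were read at a WWTR1 start, and the KYSE150 silenced libraries at another place in the span. KYSE510 silenced 2 and 3 were also read away from that start. The start region (chr3:149657623-149658929) read 23, 22 and 31 against 18, 22 and 14 in KYSE150. In KYSE510 it read 29, 26 and 25 against 27, 22 and 28. TEAD1 read 31, 20 and 31 against 19, 28 and 32 in KYSE150 and 16, 16 and 17 against 14, 22 and 22 in KYSE510. KYSE150 control 1 was read at a different place in the span from the other KYSE150 libraries. The KYSE510 heights came from several places in the span. At chr11:12746565-12747311 heights were 30, 20 and 31 against 19, 28 and 32 in KYSE150. In KYSE510 they were 16, 11 and 17 against 11, 13 and 18 there. TEAD4 read 17, 15 and 21 against 14, 15 and 16, and 22, 13 and 13 against 12, 16 and 20. The TEAD4 heights of KYSE150 and of KYSE510 control 3 came from a peak past the high-coordinate end of the gene. The other KYSE510 heights came from a peak near its low-coordinate end. The groups of these 2 TEAD factors overlapped in both lines as well.

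Among the targets, ANKRD1 in KYSE510 was the one gene of the 10 whose control and silenced scores did not overlap. Its tallest peak was 8, 10 and 8 high in KYSE510 controls and 17, 15 and 14 after silencing, and in KYSE150 it was 4, 14 and 6 against 7, 11 and 6. The KYSE510 score difference was 0.68 ± 0.198, with an unadjusted p of 0.00404 and a limma adjusted p of 0.526, and the adjusted p was 0.370 to 0.767 over the other settings tried. The KYSE150 difference was 0.24. The peak lies over the ANKRD1 start (chr10:90921048-90921834), on the window printed above. CCN1 read 21, 22 and 21 against 16, 18 and 18 in KYSE150 and 19, 23 and 20 against 21, 25 and 21 in KYSE510. CCN2 read 15, 23 and 16 against 12, 24 and 19, and 24, 16 and 28 against 13, 24 and 17. The KYSE150 heights came from the CCN2 start, and the KYSE510 heights from a peak outside the gene (chr6:131954727-131955074). At the CCN2 start, KYSE510 read 22, 16 and 16 against 8, 14 and 17. The CCN1 heights of KYSE150 were lower in all 3 silenced libraries, but their scores overlapped (difference -0.08), and the CCN2 groups overlapped in both lines. In every library the tallest CCN1 peak lay outside the gene, within the span of the neighbouring gene DDAH1.

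The feedback regulators did not pass the test either. LATS2, the kinase that inactivates YAP and TAZ, read 18, 12 and 15 in KYSE150 controls and 9, 11 and 9 after silencing, and 9, 12 and 12 against 7, 11 and 6 in KYSE510. Its score difference was -0.36 ± 0.24 in KYSE150 (adjusted p = 0.957) and -0.37 in KYSE510, below 0 in both. The KYSE150 heights did not overlap, but the scores did in both lines. In KYSE510 silenced 1 and 2 the LATS2 height came from a peak in the span away from the start. AMOTL2, an angiomotin-family protein that binds YAP, read 48, 23 and 25 against 32, 26 and 23 in KYSE150 and 57, 56 and 55 against 46, 61 and 42 in KYSE510. The height of 48 came from KYSE150 control 1 alone. The AMOTL2 heights of KYSE510 and of KYSE150 silenced 1 and 3 came from a peak outside the gene. The other KYSE150 heights came from a peak in its span. AJUBA, a LIM protein that inhibits LATS kinases, read 6, 10 and 7 against 7, 8 and 6, and 28, 19 and 16 against 17, 14 and 20, with overlap in both lines. These AJUBA heights came from a peak outside the gene, at the start of HAUS4, in KYSE150 control 1. The same held in each KYSE510 library but silenced 3.

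Across all genes, 0 of 17411 tested in KYSE150 and 0 of 18745 in KYSE510 passed limma's adjusted p of 0.05, a background of 0% in each, with 924 and 1286 at an unadjusted p under 0.05. On log2 heights in place of ranks limma called 55 and 29 genes, none of them among the 10. Scores of control and silenced libraries did not overlap in 10.7% of all genes in KYSE150 and in 0 of the 10, and in 12.1% of all genes in KYSE510 and in 1 of the 10. A count of 1 of 10 is near that background. The median difference of the 10 genes was 0.03 in KYSE150 and -0.05 in KYSE510, and that of all genes was -0.00033 and -0.00528. An interaction test, of whether silencing acted differently in KYSE150 and KYSE510, called 0 of 18967 genes, again 0%, with 1053 at an unadjusted p under 0.05.

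**Figure D2:**
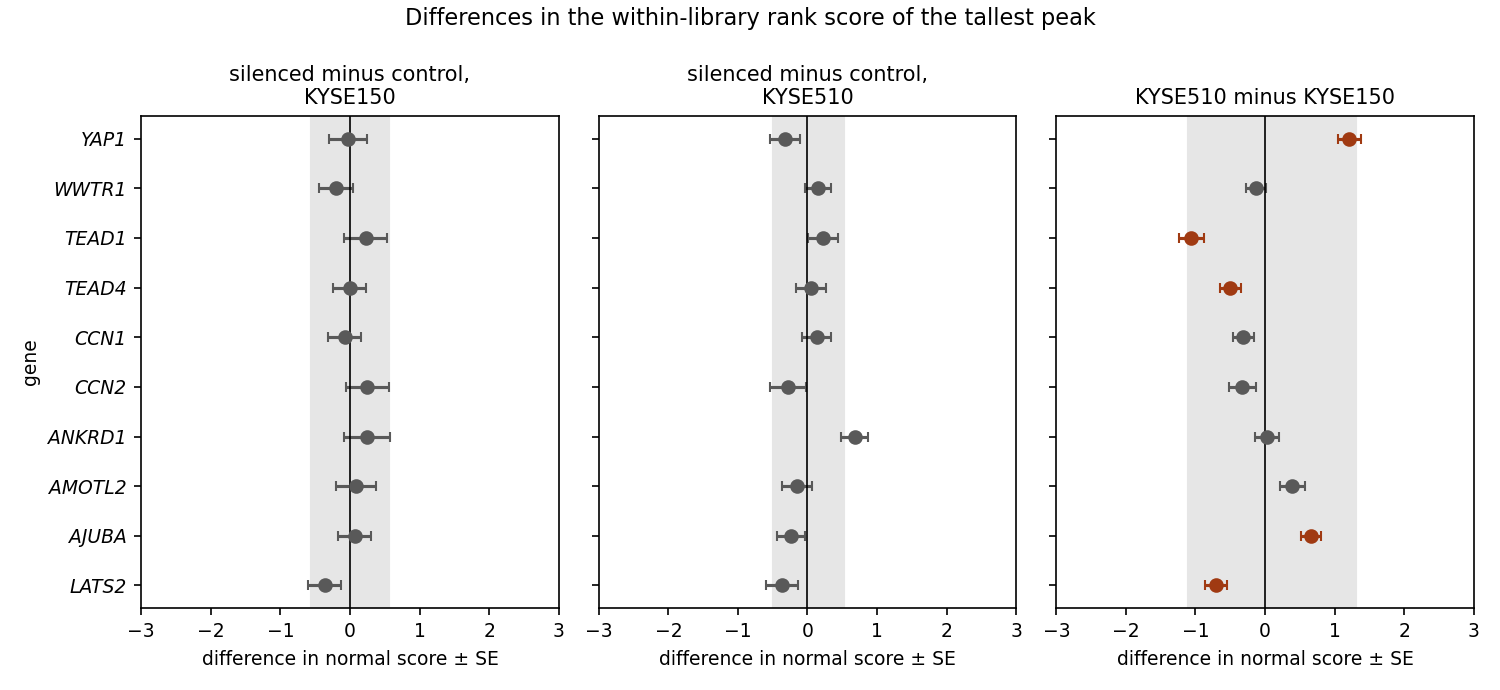
Difference in the rank score of the tallest peak (± SE) for each gene: silenced minus control in KYSE150 and in KYSE510, and KYSE510 minus KYSE150. Grey bands hold the middle 95% of all genes tested and red points passed an adjusted p of 0.05: none in the silencing panels and 5 in the line panel.

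Single regions gave the same count. Overlapping peaks were merged into 290571 regions, of which 232 lay in the 10 windows, 159 in a gene span and 73 outside. TEAD1 had 62, YAP1 42, WWTR1 32, TEAD4 27, AJUBA 18, AMOTL2 14, LATS2 13, CCN1 10, CCN2 9 and ANKRD1 5. In KYSE150, 40 of these regions were in all 6 libraries, and limma called 0 of them and 0% of 27137 regions in all. 3 of the 40, or 7.5%, had an unadjusted p under 0.05, against 5.52% of all regions. In KYSE510, 47 were in all 6 libraries and 0 were called, of 46254 with 0% called. 4 of the 47, or 8.51%, had an unadjusted p under 0.05, against 8.06%. The smallest adjusted p in KYSE510 was 0.467, at the LATS2 start (chr13:21061450-21061975), where heights were 9, 12 and 12 in controls and 4, 7 and 6 after silencing, a score difference of -1.08 ± 0.307. The ANKRD1 start region had a difference of 0.77 ± 0.258 (adjusted p = 0.511).

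A few regions had a peak in each control library and no silenced one, or the reverse. In KYSE150 this held for 0 of 126 regions on either side, where 0.741% of all regions were on the control side and 0.278% on the silenced side. In KYSE510, 3 of 204 were on the control side (0.318% of all regions) and 2 of 204 on the silenced side (0.640%). The control-side region with the tallest peaks lay in AJUBA (chr14:22977707-22977982) with heights 12, 10 and 15. The nearest peaks of the silenced libraries were 140, 204 and 998 bp away and 7, 10 and 20 high. A control-side WWTR1 region (chr3:149575595-149575907) read 4, 5 and 8, and the silenced libraries had peaks of 18, 26 and 34 at 240, 164 and 175 bp from it. Within these 2 regions themselves the silenced libraries had no peak of any height. On the silenced side a YAP1 region (chr11:102118968-102119234) read 3, 7 and 10, and the nearest control peaks were 815, 906 and 833 bp away. The other one-sided regions, 1 on each side, lay in TEAD1 and were 3 to 4 high.

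Between the lines, 5 of the 10 genes passed the test, 2 higher in KYSE510 and 3 higher in KYSE150. Over all genes 8457 of 18967 were called, or 44.6%, so 5 of 10 is near the background and says nothing particular about these genes. The line is confounded with the list differences given above, and the values describe these 2 sets of libraries. The median difference, KYSE510 minus KYSE150, was -0.22 over the 10 genes and -0.05 over all genes.

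YAP1 was the most displaced of the 10, with a score 1.21 ± 0.167 higher in KYSE510 (limma adjusted p = 2.29e-06, n = 6 each). Its tallest peak was among the top 0.1418 to 0.7319% of peaks in KYSE510 libraries and the top 4.084 to 14.99% in KYSE150 libraries, with no overlap. The same region, chr11:102177996-102178692, in the gene span and 67.9 kb from the start, was the tallest in both lines on average. It read 24, 14, 26, 21, 21 and 10 in KYSE150 and 67, 82, 58, 53, 57 and 48 in KYSE510 (controls 1 to 3, then silenced 1 to 3). The region over the YAP1 start (chr11:102109883-102110754), which covers the window printed above, read 10, 5, 12, 7, 7 and 5 against 18, 19, 22, 18, 19 and 26. Of 6 YAP1 regions called in all 12 libraries, 5 were higher in KYSE510 and 0 in KYSE150, where 38.0% of 21340 regions in all were called, 4024 of them higher in KYSE510. The local background within 1 Mb of YAP1 was 1.18 to 1.47 times the library median in KYSE510 (mean 1.34, percentile 81.2 of all genes) and 1.0 times in KYSE150. Dividing heights by the local background left YAP1 called, and the part of this background in the difference was otherwise not tested.

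WWTR1, the partner of YAP1, did not pass the test: its score difference was -0.13 (adjusted p = 0.504), and 0 of its 4 regions in all 12 libraries were called. The region over a WWTR1 start (chr3:149657623-149658929) read 23, 22, 31, 18, 22 and 14 in KYSE150 and 29, 26, 25, 27, 22 and 28 in KYSE510. These ranges overlap.

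TEAD1 and TEAD4 scored lower in KYSE510. TEAD1 had a score difference of -1.06 ± 0.184 (adjusted p = 4.78e-05). Its tallest KYSE150 region, chr11:12746565-12747311, in the span, read 30, 20, 31, 19, 28 and 32 in KYSE150 and 16, 11, 17, 11, 13 and 18 in KYSE510, a region difference of -1.40 (adjusted p = 0.000249). The tallest TEAD1 region in KYSE510, chr11:12802574-12803151, also in the span, read 31, 20, 18, 16, 20 and 19 against 16, 14, 13, 12, 22 and 22, a difference of -0.80 (adjusted p = 0.00920). The region over the low-coordinate end of TEAD1 (chr11:12673823-12674752) differed by -0.07 and was not called. Along the 270.3 kb span, 3 of 7 regions were higher in KYSE150 and 1 in KYSE510, so the gene held differences of both signs. TEAD4 had a difference of -0.50 ± 0.152 (adjusted p = 0.00981), which was -0.34 (adjusted p = 0.111) over the local background and -0.54 (adjusted p = 0.0650) in control libraries alone. The region past its high-coordinate end (chr12:3041487-3041998) was lower in KYSE510 by -0.73 (adjusted p = 0.00809). The region over its low-coordinate end (chr12:2958322-2959625) was higher there, with heights 10, 6, 5, 8, 8 and 9 against 22, 13, 11, 12, 16 and 20, a difference of 0.65 (adjusted p = 0.0384).

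**Figure D3:**
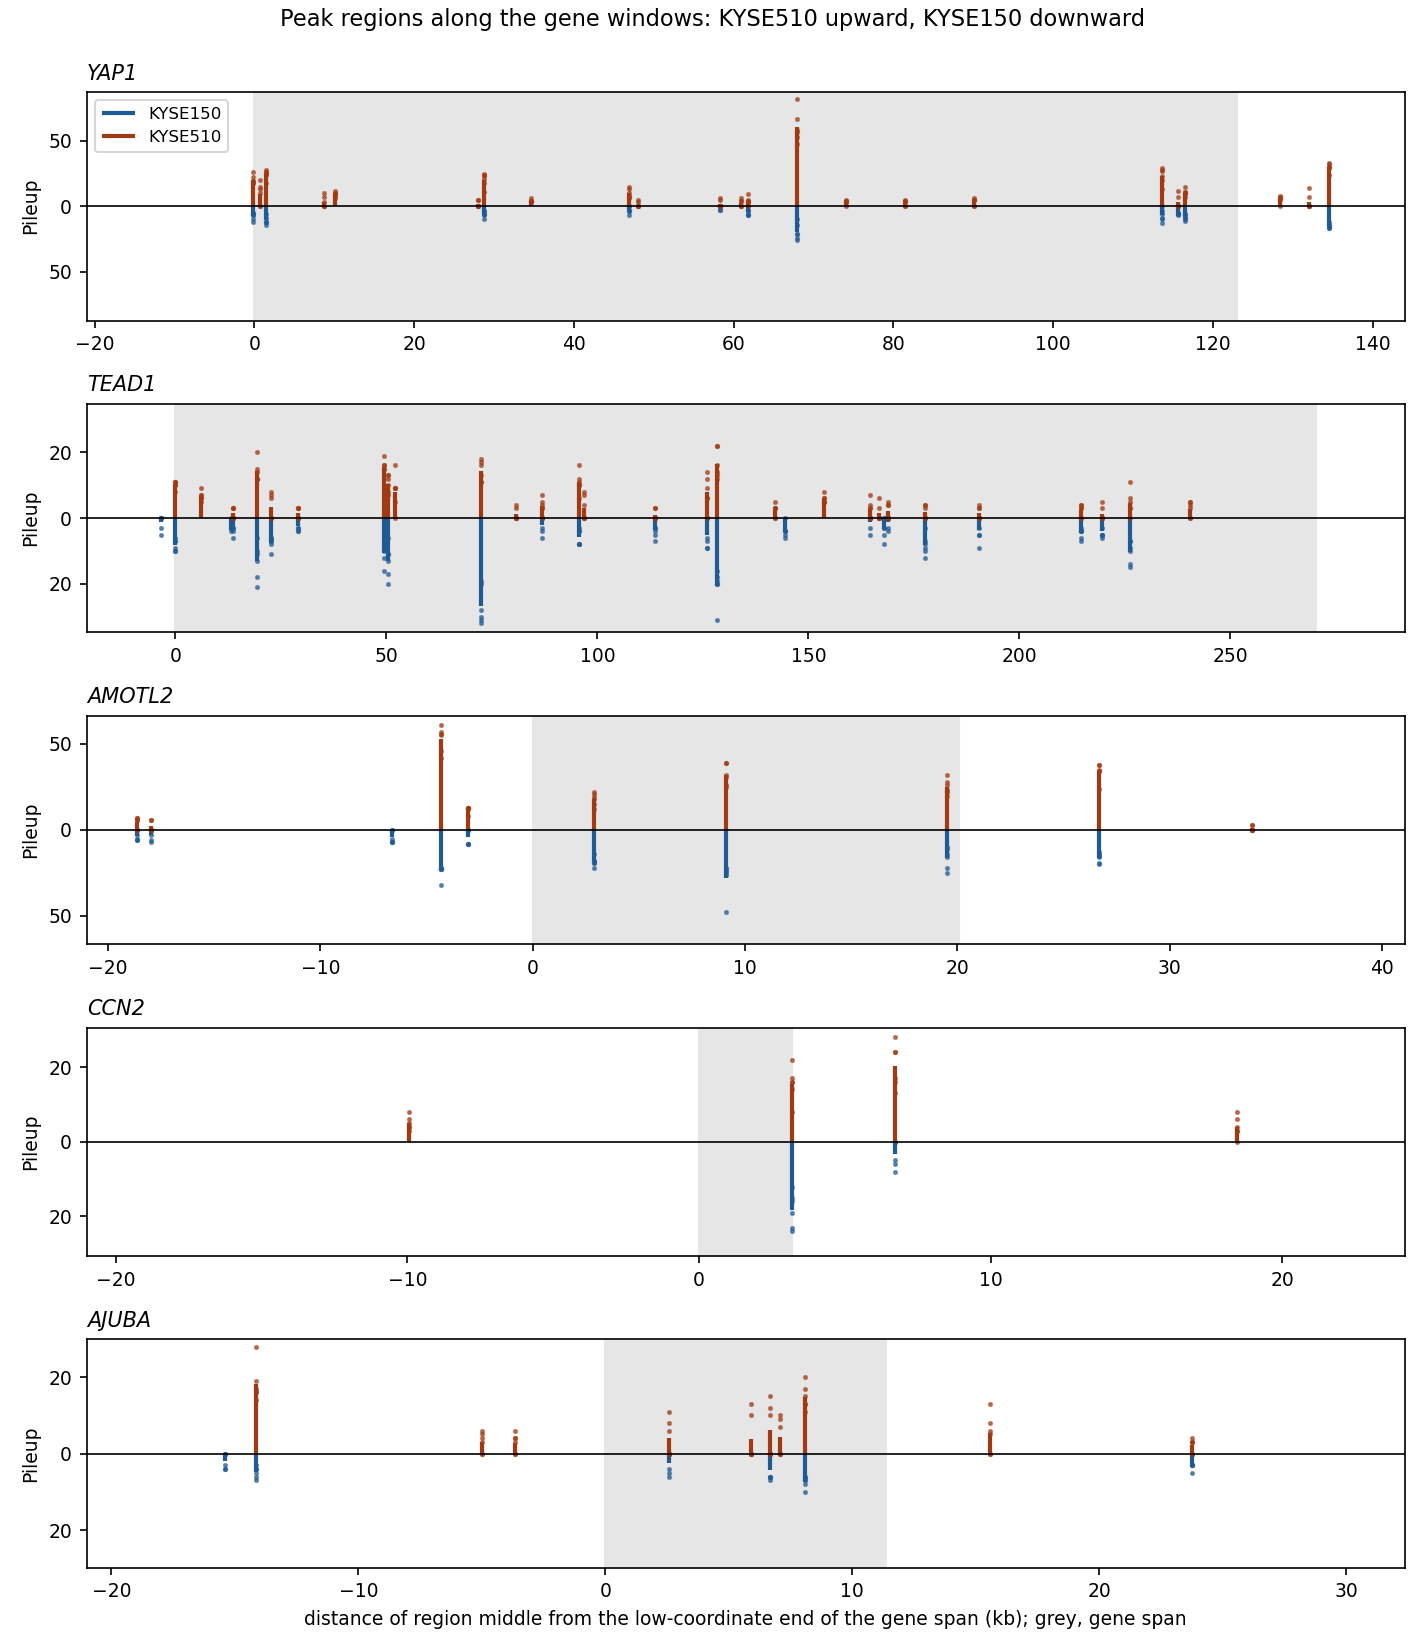
Mean Pileup of the merged regions (lines) and each library's Pileup (dots) against distance from the low-coordinate end of the gene span in kb, KYSE510 upward and KYSE150 downward, for regions in at least 2 libraries of a line, at 5 genes. The tallest YAP1 region stands 67.9 kb into the span in both lines, and TEAD1 has regions that are taller in one line and regions that are taller in the other.

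Of the targets, CCN1, CCN2 and ANKRD1 did not pass the gene test between lines. Their differences were -0.31 (adjusted p = 0.0877), -0.33 (adjusted p = 0.183) and 0.03 (adjusted p = 0.916). For CCN1 the call depended on the window: it was -0.58 (adjusted p = 0.00430) at 5 kb and -0.70 (adjusted p = 0.000741) at 50 kb. Its tallest region in both lines, chr1:85571828-85572330, lies outside the CCN1 span and within the span of DDAH1, the neighbouring gene, at 16 to 22 in KYSE150 and 19 to 25 in KYSE510. The region over one end of the CCN1 span (chr1:85580548-85581160) read 13, 14, 14, 15, 9 and 8 against 12, 9, 6, 0, 13 and 8. For CCN2, 2 regions carried the height. The start region (chr6:131951056-131951666), on the GGAATG-bearing window, read 15, 23, 16, 12, 24 and 19 in KYSE150 and 22, 16, 16, 8, 14 and 17 in KYSE510, a score difference of -0.72 (adjusted p = 0.0305). A region outside the span (chr6:131954727-131955074) read 0, 0, 5, 0, 8 and 6 in KYSE150 and 24, 16, 28, 13, 24 and 17 in KYSE510, with no overlap and the opposite direction. The ANKRD1 start was the one ANKRD1 region in all 12 libraries, and its difference of 0.27 was not called.

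The feedback genes went in different directions. LATS2 had a score difference of -0.71 ± 0.157 (adjusted p = 0.000679), and its start region (chr13:21061074-21061975) read 18, 12, 15, 9, 11 and 9 in KYSE150 and 9, 12, 12, 4, 7 and 6 in KYSE510, a region difference of -1.09 (adjusted p = 0.000797). AJUBA had a difference of 0.66 ± 0.144 (adjusted p = 0.000635). That call was lost at a window of 5 kb (0.34, adjusted p = 0.0827) and over the local background (0.32, adjusted p = 0.0799), which was 1.24 to 1.71 times the library median in KYSE510 and 1.0 times in KYSE150. The tallest KYSE510 region of the AJUBA window, chr14:22956472-22957577, lies outside the gene at the start of HAUS4, a neighbouring gene, and read 6, 7, 5, 3, 4 and 4 against 28, 19, 16, 17, 14 and 16. Inside AJUBA, chr14:22978934-22979606 read 6, 10, 7, 7, 8 and 6 against 13, 17, 15, 13, 11 and 20, a difference of 0.65 (adjusted p = 0.0248). AMOTL2 did not pass (0.39, adjusted p = 0.0708), and without KYSE150 control 1 it did (0.57, adjusted p = 0.00493). Its region outside the span at chr3:134350724-134351336 read 22, 22, 23, 32, 23 and 23 in KYSE150 and 57, 56, 55, 46, 61 and 42 in KYSE510, a difference of 0.64 (adjusted p = 0.00936). The region in the span at chr3:134363932-134364969, the tallest in KYSE150, read 48, 23, 25, 24, 26 and 22 against 32, 39, 39, 26, 25 and 31 and was not called.

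Of the 232 regions, 33 were in all 12 libraries, 14.2% against 7.34% of all regions, with 26 of them in a gene span. 101, or 43.5%, were in 1 library, against 50.5% of all. 7, or 3.02%, were in all 6 KYSE510 libraries and no KYSE150 library, against 3.45% of all. 0 were in all 6 KYSE150 libraries and no KYSE510 library, against 0.285%. Of the 33 shared regions limma called 17 between lines, 11 higher in KYSE510 and 6 higher in KYSE150, or 51.5% against 38.0% of 21340 regions. With fold enrichment in place of height it called 9 of the 33, against 25.2% of all regions. Of these 9, 4 were higher in KYSE510 and 5 higher in KYSE150.

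**Figure D4:**
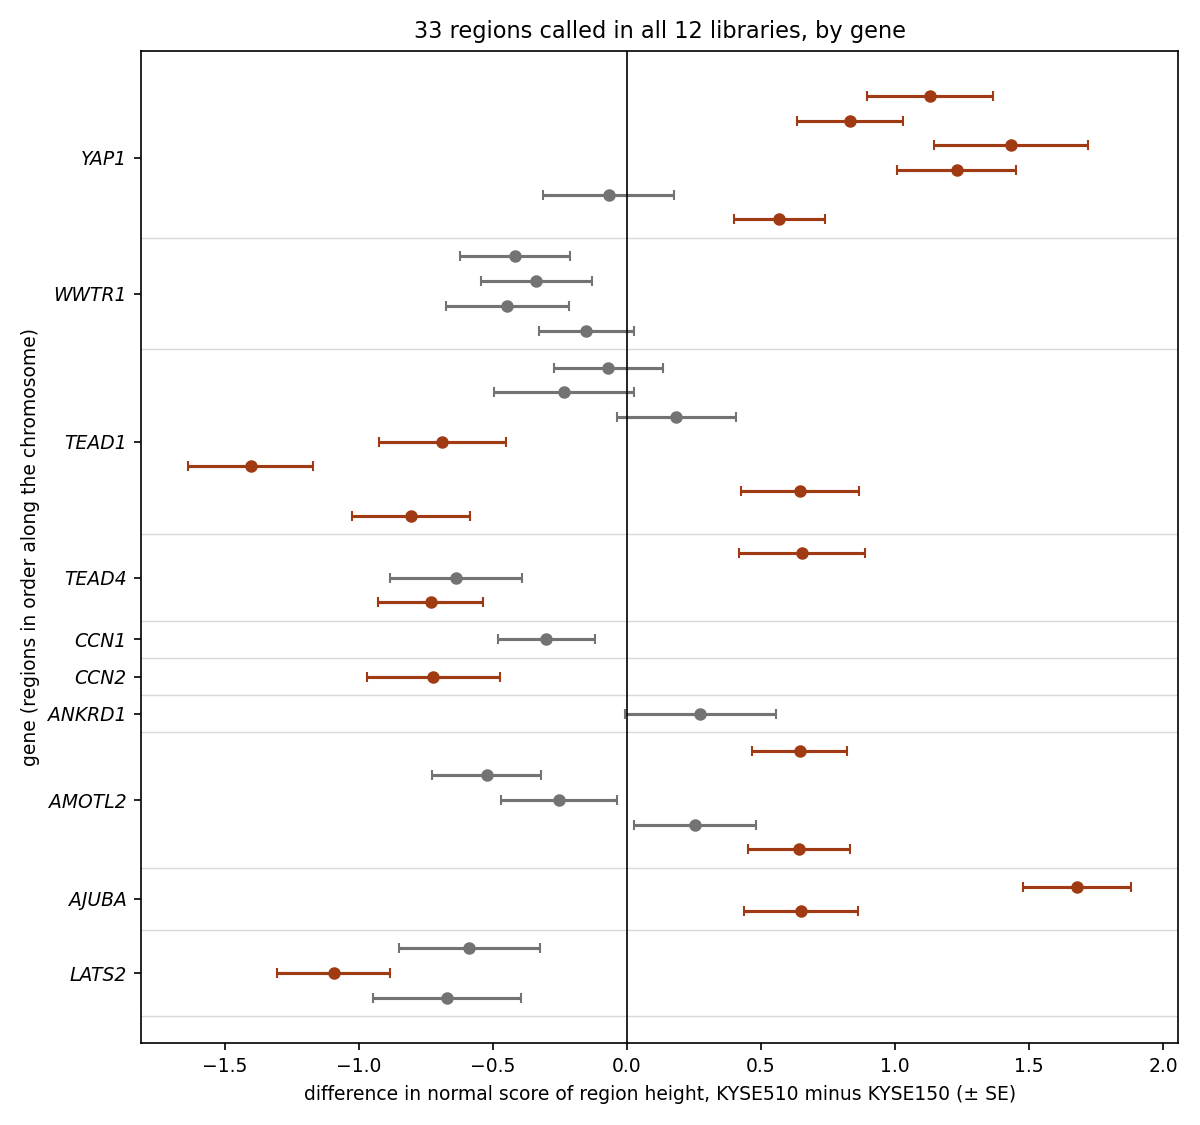
Difference in the rank score of region height, KYSE510 minus KYSE150 (± SE), for each of the 33 regions in all 12 libraries, in order along the chromosome within each gene. Red points passed an adjusted p of 0.05: 11 to the right (5 of them in YAP1) and 6 to the left (3 of them in TEAD1).

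Other genes of the pathway were taken from 2 lists. Among 26 Hippo regulators and 17 further YAP and TAZ target genes, limma called 0 for silencing in either line and 0 for the difference between lines in that effect. In KYSE150 16 of the 17 targets could be tested, since FOXF2 had no peak there. Between lines, 9 of the 26 regulators were higher and 10 lower in KYSE510, with a median difference of -0.07. These 19 calls are 73.1% of the list, against 44.6% of all genes. Among those higher were SAV1, the scaffold of the STK3 and STK4 kinases (1.47), FRMD6, a FERM-domain protein upstream of them (1.25), VGLL1, a TEAD co-factor (1.28), TEAD2 (0.87) and TAOK3 (0.83). In KYSE150 the tallest SAV1 peak was 0 to 5, with a peak in 4 libraries. That of VGLL1 was 0 to 3, with a peak in 3 libraries. Both are near the minimum Pileup of 3, which limits what these 2 differences show. Among those lower were PTPN14, a phosphatase that binds YAP (-1.98), WWC1, known as KIBRA (-1.44), MAP4K4 (-0.62), NF2, the merlin tumour suppressor (-0.56), and STK3 (-0.52). The local background ratio was 1.88 at PTPN14 in KYSE150 and 2.04 at TEAD2 in KYSE510, in the direction of each difference. In KYSE510 it was also raised at SAV1 (1.62), CCDC80 (1.53), NUAK2 (1.52), FRMD6 (1.26) and GADD45A (1.24), all higher in that line, and in KYSE150 at WWC1 (1.16) and TGFB2 (1.14), both lower in KYSE510. Other genes went the opposite way. In KYSE510 it was below the library median at VGLL1 (0.789), NT5E (0.824) and TAOK3 (0.894), all higher in that line. It was larger in KYSE510 than in KYSE150 at NF2 (1.12 against 1.04), MAP4K4 (1.04 against 1.0) and DOCK5 (1.02 against 1.0), all lower in KYSE510. Its part in these differences was not tested. Of the 17 targets, 5 were higher and 6 lower, with a median of -0.16. These 11 calls are 64.7% of the list, against the same 44.6%. NUAK2 (0.67), NT5E (0.65), FOXF2 (0.48), CCDC80 (0.45) and GADD45A (0.43) were higher. FOXF2 had a peak in 0 KYSE150 libraries and in 6 KYSE510 libraries, at 3 to 8, so it entered the test through KYSE510 alone and its call is no support for a difference. PTPN14, which is in both lists, TGFB2 (-1.21), RBMS3 (-0.94), DOCK5 (-0.64) and MYOF (-0.54) were the lower genes with the smallest adjusted p. By mean percentile of the tallest peak, PTPN14 was highest of both lists in KYSE150 (99.95), and VGLL1 (11.99) and FOXF2 (7.216) were lowest. In KYSE510 FRMD6 (92.07) and GADD45A (98.18) were highest and WTIP (21.76) and FOXF2 (17.95) lowest.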

How the data were processed

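The deposited data were 1 peak table per library. Trimmomatic 0.36, Bowtie2 2.2.6, Picard 2.8.2, MACS2 2.1.1, bedtools 2.25.0 and GRCh38 are named in the submitters' processing notes, without their roles or order. Per the file headers, Pileup is the peak height, a signal. Fold enrichment is the authors' ratio of height to local background. The deposited p-value and FDR are linear, and the largest p-value was 0.00987. The authors' peak length was at least 200 bp. No value was scaled between libraries as far as the tables show, so depth is unknown and no counting interval was computed.

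Peaks on 24 chromosomes with Pileup of at least 3 were assigned to genes by the RefSeq span (GRCh38.p14) plus 20 kb on each side. The gene table gives spans, not exons, so regions are placed in or outside the span. Normal scores of within-library ranks were compared with limma 3.58.1 (R 4.3.3), with Benjamini-Hochberg adjustment over all genes with a peak in at least 3 of the libraries fitted. Merged regions (1 bp overlap) were tested where called in every library fitted. The local background is the median, within 1 Mb, of the background solved from Pileup and fold enrichment, relative to the library median. The fits were tested on simulated data. Python 3.11.15 with pandas 2.3.3 was used for the tables. The 10 genes and both lists were chosen with earlier results of these data known, so they carry no independent support. All 10 genes are named; list genes are named where called (at most 5 per direction, by adjusted p) or where highest or lowest in a line. Regions are named where tallest or one-sided; start regions, other called regions and the regions of smallest p were picked after their values were seen. Alternatives are in the closing section.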

Additional observations from a re-analysis of the deposited data

How the results depend on the processing

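The 10 genes kept their side of the threshold for silencing in both lines and for its difference between lines wherever they were tested under the 17 to 22 other settings run, and no called difference turned its direction. Between lines, 210 of 230 values of the 10 genes kept direction and call, 9 values that were not called changed sign, 4 lost the call (AJUBA and TEAD4, given above) and 7 gained it. AMOTL2 gained it with a replicate block (adjusted p = 0.0469), CCN1 over the local background (-0.40, adjusted p = 0.0396), and CCN2 with fold enrichment (-0.71, adjusted p = 0.0222) and without KYSE150 silenced 1 (-0.50, adjusted p = 0.0330). Counts over all genes moved in a few settings, and the cause was not tested. On log2 heights 55 genes were called in KYSE150, 29 in KYSE510 and 34 for the difference in effect, and 1 KYSE510 region. At a window of 5 kb 2 genes were called in KYSE510 and 1 for the difference in effect. With control libraries only, fewer samples by construction, 5377 genes differed between lines. With fold enrichment 5374 regions, 25.2% of those tested, differed between lines, 9 of them in the windows. At a minimum Pileup of 5, which tests fewer regions, 5288 did. In KYSE150, the number of window peaks after silencing relative to controls was 0.065 on the log2 scale and -0.34 at a minimum Pileup of 10. One-sided regions numbered 2 on the KYSE150 control side at a minimum of 5. On the KYSE510 control side they were 1 at a minimum of 5 and 1 at 10, and on the silenced side 0, 0 and, at an FDR of at most 0.05, 1. At a minimum of 10, 2 regions were in all 6 KYSE510 libraries alone and 14 in all 12.

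Replicate numbers are shared by the groups in the labels. Same-numbered control and silenced libraries correlated at 0.0778, 0.0716 and 0.0208 in KYSE150 and 0.124, 0.0597 and 0.0431 in KYSE510 in their deviations from the group means, so the numbers were not taken to pair them, although each control correlated best with its own number. With the replicate block limma called 0 genes for silencing in both lines and 8580 between lines, 6 of the 10 genes among them. Local background and control libraries only were settings chosen after seeing the data. A stricter overlap for shared regions was not run, since each peak lies wholly in its merged region. Unknown depth limits what absence of a peak means.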

Other observations

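Over the 12 rank scores, the protein-coding genes nearest to CCN1 were PCNP (Euclidean distance 0.645), TRMT10C (0.645) and FJX1 (0.652), against a median distance of 3.07 to all genes. FJX1 is itself one of the 17 further target genes. The tallest CCN1 peak lay in the DDAH1 span in every library, so the CCN1 distances describe that peak. The genes nearest to CCN2 were ZYX (0.855), EPHA1 (0.859) and IFT57 (0.925), against a median of 3.18. Genes share the 12 libraries and their depth, so these distances are descriptions with no test. Whether the listed genes share a tallest peak with each other was not tested.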
